A study of Mus musculus with 12 samples.

Results

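Expression of 9 genes of the muscle acetylcholine receptor and of its assembly at the synapse was followed through RNA sequencing of mouse primary myotubes, the multinucleated muscle cells formed when cultured myoblasts fuse. The 9 genes were chosen by name, from a table of 20201 genes: the receptor subunits Chrna1, Chrnb1, Chrnd and Chrng, the scaffold gene Rapsn, the kinase gene Musk with its adaptor Dok7 and co-receptor Lrp4, and the ligand gene Agrn. All 9 had a mean of at least 10 normalized counts over the libraries, the minimum for testing. The myoblasts of every library came from mice with floxed Bmal1, the gene of a circadian transcription factor. Differentiated cultures received an adenovirus with the Cre recombinase or an empty one for 48 hours, and then stood in 21% or 1% oxygen for 6 hours. The labels give 2 groups of 6 libraries, wildtype in 21% oxygen and Bmal1 knockout in 1% oxygen, although the design text describes 4 conditions. Genotype and oxygen go together in the labels and cannot be told apart there. The labels name no separate cultures or animals, and the spread on which the p-values rest is that among libraries and may be technical in origin. Wildtype replicates 1 to 3 and 4 to 6 are titled Myotube1 to 3 and 7 to 9, and knockout replicates 1 to 3 and 4 to 6 are titled Myotube4 to 6 and 10 to 12. These 4 blocks of 3 are described side by side, but the labels assign the same oxygen to both blocks of a label, so differences between them are given as values without a test.

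The adult and embryonic muscle receptors are pentamers built from alpha, beta, delta and either gamma or epsilon subunits. Gamma belongs to the form made before innervation, and epsilon replaces it at the mature synapse. Agrin released by the motor nerve binds LRP4, which activates the receptor tyrosine kinase MuSK. Muscle itself makes other forms of agrin. MuSK works through the adaptor DOK7, and rapsyn, bound to the receptor, gathers it into dense clusters. Electrical activity and innervation restrict the transcription of subunit genes to the nuclei under the synapse, while cultured myotubes without nerve express them along their length.

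Libraries held 6376584 to 12463339 reads, and a count of 3 reads, used as the floor of detection, corresponded to 2.12 to 5.85 normalized counts. Such floors cover counting error only. Arntl, the symbol used here for Bmal1, had 133 to 179 normalized counts under the wildtype label against 41.7 to 48.6 under the knockout label (log2 difference -1.78, two-sided exact permutation p = 0.00216, the smallest that 924 relabellings can give). Egln3, which low oxygen induces, stood at 194 to 270 in titles 1 to 6 and at 2036 to 2258 in titles 7 to 12, whatever the label. Slc2a1, a glucose transporter gene that low oxygen also induces, stood at 475 to 588 and at 3168 to 3554 in the same titles. Both genes thus followed the title numbers and not the oxygen label, and the oxygen that each library received is in doubt. The comparison below is therefore named by label only. Wildtype replicate 2 had the highest share of genes at 0, 29.6%, against 13.0% to 21.9% in the others.

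Myotube identity was checked first. Acta1, Ckm, Myh3, Myh8, Tnnt3, Mymk and Myog were all expressed, and their summed level was 9469 to 12924 normalized counts under the wildtype label and 17998 to 19987 under the knockout label. Of these 7 markers, 4 rose (Acta1, Ckm, Tnnt3 and Mymk, by 1.16 to 1.56 on the log2 scale), Myog fell by 0.51, and Myh3 and Myh8, the embryonic and perinatal myosin genes, did not pass the test. The summed level of 5 myoblast markers was 398 to 486 under the wildtype label and 261 to 361 under the knockout label. Fibroblast markers were abundant in every library (Col1a1 at 47590 ± 4884 and 53077 ± 10530, SD, n = 6), and endothelial markers were present. Of 6 fibroblast markers 1 fell and none rose. These marker counts stand beside 10.2% of all tested genes called higher and 9.07% called lower. In such bulk RNA, fewer cells of a type and less RNA per cell cannot be told apart. Of 7 motor neuron and 6 Schwann cell markers, 2 of each were tested and none passed, with median log2 differences of 0.10 and 0.53. The others were below the minimum mean or not measured. Isl1, S100b and Sox10 had means of 2.55 to 5.96 normalized counts under the wildtype label and 3.53 to 5.03 under the knockout label. Ngfr and Tubb3, which other cell types also express, stood at 39.9 and 390.3 under the wildtype label and 44.4 and 372.0 under the knockout label. The remaining tested marker of each list also reached the minimum mean and did not pass. The levels of those markers are not given here, so the values above do not show that such cells were absent.

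Promoter sequence was available from RefSeq (GRCm38.p6) for 6 of the 9 genes, in windows of 250 bases before to 50 after a start site. Stretches upstream of the start are shown for Chrna1, Chrng and Musk, which changed between the labels and held a match to a motif named below. The epsilon gene Chrne is shown as the counterpart of Chrng. Dok7 also changed, but its windows held no match and are not shown. Rapsn changed too and had no window. Capitals mark matches, on either strand, to the E-box forms CAGCTG and CAGGTG bound by myogenic factors, to the E-box CACGTG bound by BMAL1 with CLOCK, and to the N-box CCGGAA bound by the ETS factor GABP.
Chrna1, chr2:73580339-73580478, minus strand: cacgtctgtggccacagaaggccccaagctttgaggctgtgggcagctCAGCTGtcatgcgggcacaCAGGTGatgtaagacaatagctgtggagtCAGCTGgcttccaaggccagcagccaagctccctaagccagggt
Chrng, chr1:87205631-87205770, plus strand: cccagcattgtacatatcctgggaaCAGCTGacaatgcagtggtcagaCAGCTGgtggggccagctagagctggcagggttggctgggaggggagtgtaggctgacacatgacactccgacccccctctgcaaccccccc
Musk, chr4:58285822-58285959, plus strand: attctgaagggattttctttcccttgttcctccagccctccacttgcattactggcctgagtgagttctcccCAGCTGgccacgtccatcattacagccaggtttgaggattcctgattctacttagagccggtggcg
Chrne, chr11:70619225-70619344, minus strand: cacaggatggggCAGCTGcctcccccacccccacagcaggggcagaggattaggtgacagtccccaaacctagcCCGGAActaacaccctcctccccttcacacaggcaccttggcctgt
In the whole windows Chrna1 held 2 CAGCTG matches and 1 CAGGTG match, Chrng 2 CAGCTG, and Musk and Chrne 1 CAGCTG each. Chrne alone among the listed windows held CCGGAA, and Chrnb1 held 1 CAGGTG. The windows of Dok7 and Agrn held none of the 4 motifs, and none of the windows of these genes held CACGTG. Of all 32851 promoter windows of this length, 16.3% held CAGCTG, 20.2% CAGGTG, 7.2% CACGTG and 14.9% CCGGAA. No match overlapped another motif, and the matches describe letters in the window only. The RefSeq start of Chrng lies inside the gene as GENCODE draws it.

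Of the 9 genes, 5 passed the comparison between labels, with 3 higher and 2 lower under the knockout label, by limma on log2(normalized count + 1) with adjustment over 12553 genes. Of all tested genes 10.2% were called higher and 9.07% lower. Chrna1, Chrng and Rapsn were higher, Musk and Dok7 were lower, and Chrnb1, Chrnd, Lrp4 and Agrn did not pass. Both directions together made up 19.2% of tested genes. The median log2 difference of the 9 genes was 0.16, against -0.001 over all genes tested. Each called gene kept its direction in all alternatives run.

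**Figure D1:**
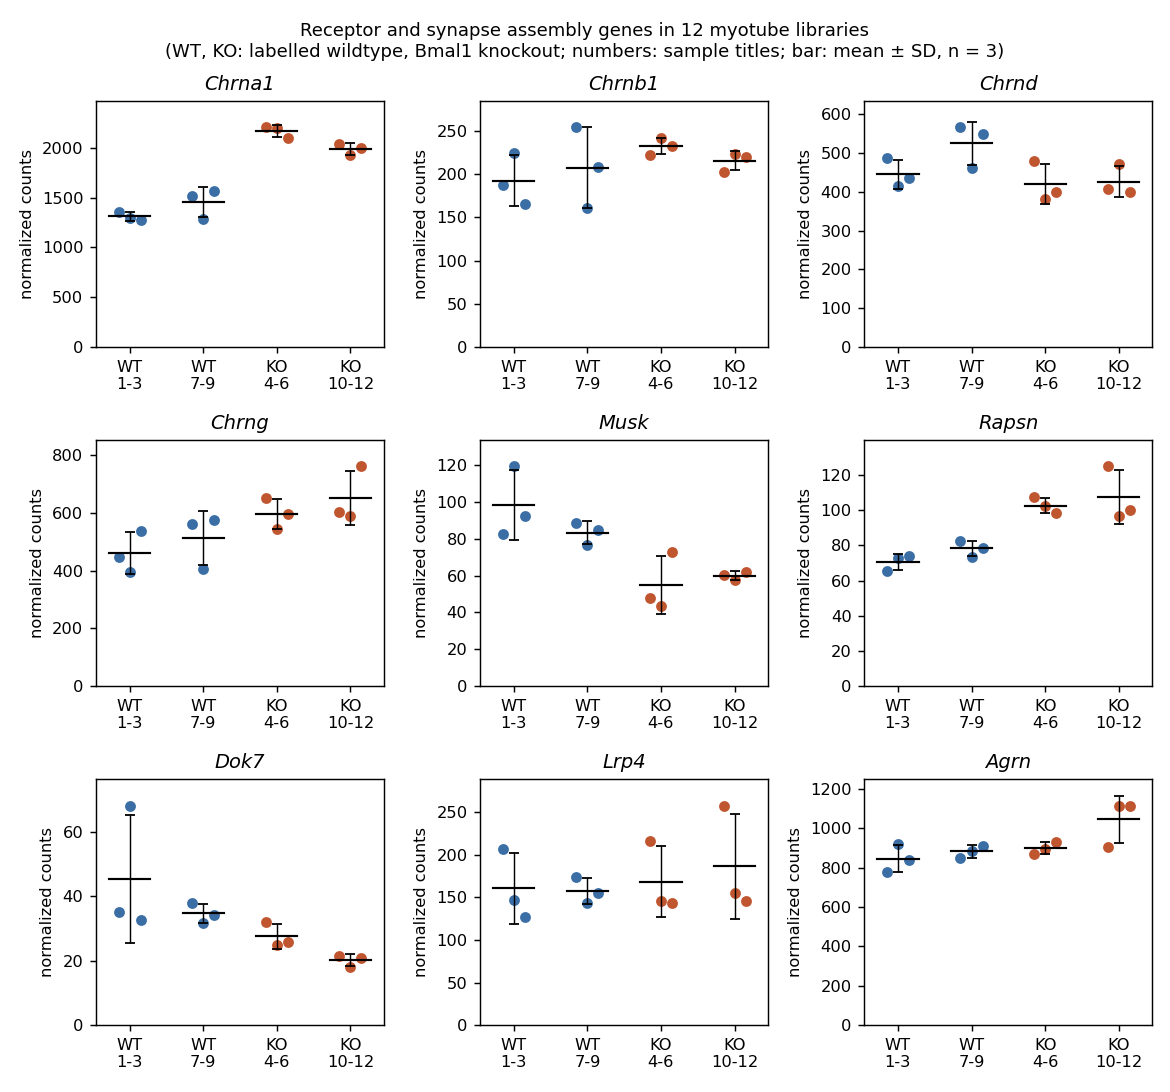
Normalized counts of the 9 genes (vertical axes, from 0) in the 4 blocks of 3 libraries, by label and title numbers, with the mean and SD of each block. The Chrna1 and Rapsn points of both knockout blocks lie above all wildtype points, and those of Musk lie below them.

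Among the receptor subunits, Chrna1 changed most. It encodes the alpha subunit, which carries the main acetylcholine binding surface and occurs as a pair in each receptor (ENSMUSG00000027107, chr2:73563215-73580338, minus strand, GRCm38). Among wildtype replicates 1 to 3 its normalized counts were 1359, 1301 and 1277, and among replicates 4 to 6 they were 1518, 1286 and 1565. In knockout replicates 1 to 3 it was 2209, 2198 and 2097, and in replicates 4 to 6 it was 2041, 1926 and 2002. Every library labelled knockout lay above every library labelled wildtype, as for 7.07% of all tested genes, and the labels were apart in either direction for 12.4%. It averaged 1384 ± 126 under the wildtype label and 2079 ± 111 under the knockout label (SD, n = 6 each), and differed by 0.59 on the log2 scale (SE 0.07, limma adjusted p = 5.27e-05). The difference was 0.72 within titles 1 to 6 (SE 0.07) and 0.45 within titles 7 to 12 (SE 0.08), past the threshold in each set (limma adjusted p = 0.00151 and 0.00302). Under scaling by library totals, which lowered the median of all genes by 0.23 on the log2 scale, the difference was 0.36 and did not pass (limma adjusted p = 0.121). Myotube markers moved in the same libraries, as given above, and their part in the change of Chrna1 and of the other called genes was not tested.

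Chrng encodes the gamma subunit of the embryonic receptor (ENSMUSG00000026253, chr1:87204657-87212694, plus strand). Its normalized counts were 447, 396 and 538 in wildtype replicates 1 to 3, followed by 560, 406 and 574 in replicates 4 to 6. In knockout replicates 1 to 3 it stood at 650, 545 and 595, and in replicates 4 to 6 at 604, 589 and 761. The labels overlapped, since knockout replicate 2 lay below wildtype replicates 4 and 6. From 487 ± 79.8 it went to 624 ± 75.0 (SD, n = 6 each), higher by 0.37 on the log2 scale (SE 0.11, limma adjusted p = 0.0369). The call was close to the threshold: leaving out 1 library ended it for wildtype replicates 1, 2 or 5 and for knockout replicates 1, 3, 4, 5 or 6 (limma adjusted p between 0.0507 and 0.0798), as did 7 further alternatives (0.0513 to 0.595). The difference was 0.38 within titles 1 to 6 and 0.35 within titles 7 to 12.

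Chrnd and Chrnb1 did not pass the test. Chrnd, the delta subunit gene (ENSMUSG00000026251, chr1:87190607-87200070, plus strand), lies next to Chrng on the same strand. Its lowest, median and highest levels were 413, 474 and 566 normalized counts under the wildtype label and 382, 403 and 479 under the knockout label. The log2 difference was -0.19 (95% interval -0.40 to 0.01, limma adjusted p = 0.179), opposite in sign to that of Chrng. It passed in 2 settings, with library weights (-0.26, limma adjusted p = 0.0459) and when libraries were scaled without the 11 most abundant genes (-0.35, adjusted p = 0.0135), where the median of all genes was -0.16. Chrnb1, the beta subunit gene (ENSMUSG00000041189, chr11:69784036-69795943, minus strand), ranged from 161 to 254 under the wildtype label and from 203 to 241 under the knockout label. All 6 knockout values of Chrnb1 lay inside the wildtype range. Its log2 difference was 0.18 (95% interval -0.06 to 0.42, limma adjusted p = 0.309), and the SDs were 36.1 and 13.0 normalized counts (n = 6 each).

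Levels of different genes were set against each other only per length, as normalized counts per kilobase of annotated exon (GENCODE M21). On this scale Chrna1 was the highest subunit gene, at 316 ± 28.7 under the wildtype label and 474 ± 25.4 under the knockout label (SD, n = 6 each). Under the wildtype label Chrnd followed at 148 ± 18.6, then Chrng at 117 ± 19.2 and Chrnb1 at 79.0 ± 14.3. Under the knockout label Chrng, at 150 ± 18.0, stood above Chrnd, at 129 ± 12.6, and Chrnb1 stood at 88.4 ± 5.12. The ranges of Chrnd and Chrng overlapped under both labels, from 126 to 172 and 95.2 to 138 under the wildtype label and from 116 to 146 and 131 to 183 under the knockout label. Chrnb1 lay below Chrng within every library of both labels, although their ranges over the libraries overlapped under the wildtype label. The exon lengths join all annotated transcripts, and the isoforms present were not resolved, so the order rests on that annotation.

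**Figure D2:**
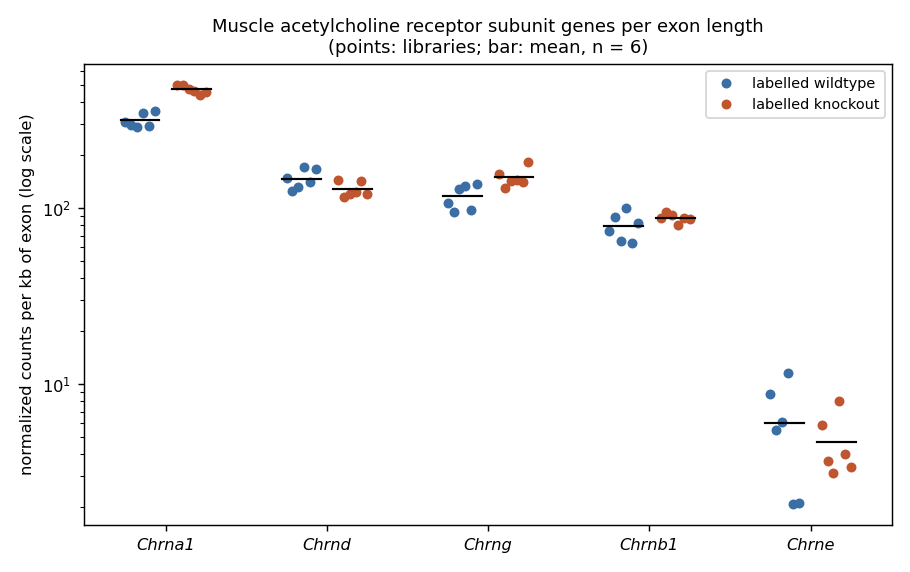
Normalized counts per kilobase of annotated exon (vertical axis, log scale) of the 5 muscle receptor subunit genes, 1 point per library, with the mean of each label. Chrna1 is highest and Chrne is lowest under both labels, and the order of Chrnd and Chrng differs between the label means.

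The epsilon gene Chrne was near the limit of detection. It encodes the adult subunit that takes the place of gamma (ENSMUSG00000014609, chr11:70614883-70619216, minus strand). It had 5 to 27 reads per library, or 3.54 to 19.7 normalized counts under the wildtype label and 5.32 to 13.6 under the knockout label, and its mean lay below the minimum for testing. Of the reads of Chrng and Chrne together, Chrng took 96.6% (Wilson 95% interval 95.1% to 97.7%) in wildtype replicate 4, the lowest share, and 99.4% (98.6% to 99.7%) in wildtype replicate 6, the highest. The shares under the knockout label, 97.8% to 99.2%, lay inside that range. Chrng reads outnumbered Chrne reads in all 12 libraries. Of 11 other acetylcholine receptor subunit genes, 6 were measured, and none reached the minimum mean. Chrna7, the alpha7 subunit gene, was the highest of them by its mean, at 8.77 to 21.7 normalized counts under the wildtype label and 2.47 to 8.71 under the knockout label.

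Ratios within a library do not depend on how libraries are scaled to each other. The ratio of Chrna1 to Chrnd per exon length was 2.01 to 2.36 under the wildtype label and 3.06 to 4.31 under the knockout label. The ratio of Chrng to Chrnd was 0.694 to 0.978 and 0.986 to 1.51, and again the labels did not overlap, though by a small margin. The ratio of Chrna1 to Chrnb1 was 3.34 to 4.62 and 4.98 to 5.81. The ratio of Chrna1 to Chrng, in contrast, overlapped between labels, at 2.25 to 3.11 and 2.497 to 3.83. Chrna1 alone already lay apart between the labels, so its ratios to Chrnd and Chrnb1 are not a separate finding from its level. These ratios were computed after the levels had been seen and are given without a test. The share of all gene pairs whose ratios separate the labels was not computed.

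**Figure D3:**
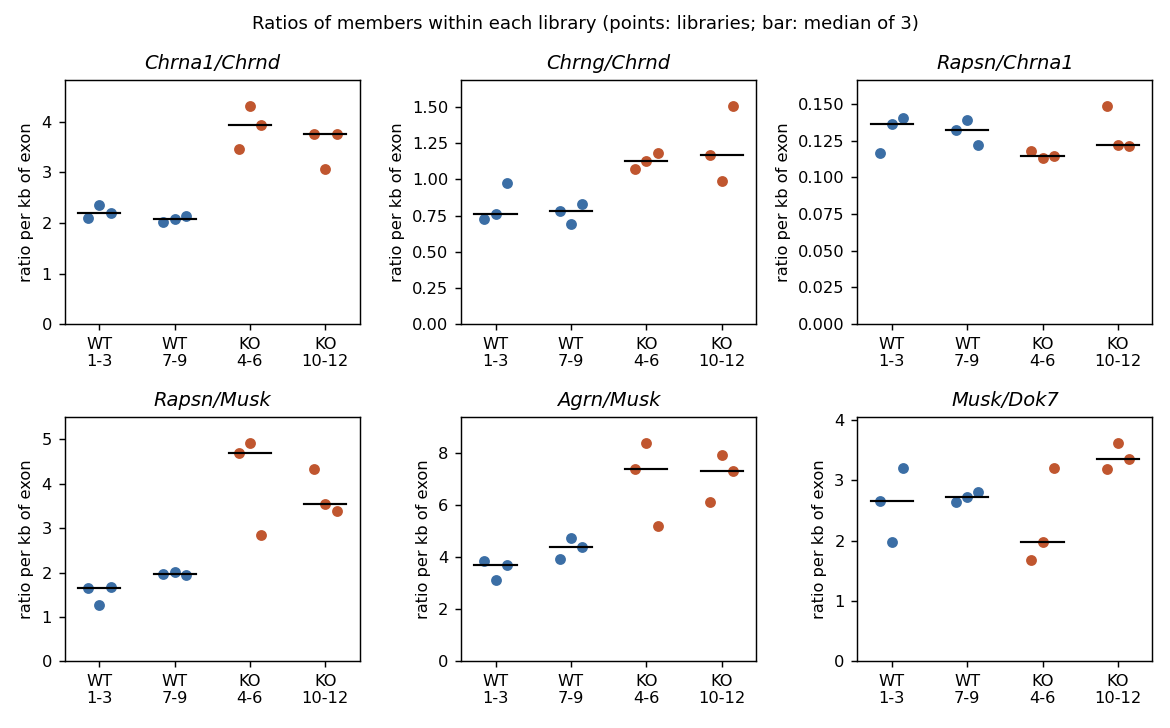
Ratios between genes of the set per kilobase of exon (vertical axes, from 0) in each library, by label and title numbers, with the median of each block. Chrna1/Chrnd, Chrng/Chrnd, Rapsn/Musk and Agrn/Musk separate the labels, and Rapsn/Chrna1 and Musk/Dok7 overlap. For Rapsn/Musk the separation follows from the levels of both genes. Chrna1 alone and Musk alone also lay apart between the labels, so Chrna1/Chrnd and Agrn/Musk are not separate findings from those levels.

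Rapsn encodes rapsyn, the cytoplasmic protein that anchors and clusters the receptor (ENSMUSG00000002104, chr2:91035620-91045729, plus strand). Its normalized counts were 65.2, 72.8 and 73.8 in wildtype replicates 1 to 3, followed by 82.5, 73.6 and 78.5 in replicates 4 to 6. In knockout replicates 1 to 3 it stood at 107, 102 and 98.5, and in replicates 4 to 6 at 125, 96.9 and 100.1. As for Chrna1, all knockout values lay above all wildtype values. From 74.4 ± 5.87 it went to 105 ± 10.4 (SD, n = 6 each), higher by 0.49 on the log2 scale (SE 0.10, limma adjusted p = 0.00362). Rapsn rested on 47 to 130 reads per library, and its exons overlap Gm13778 on the other strand by 4 bases. The difference was of similar size within titles 1 to 6 (0.53, SE 0.15, limma adjusted p = 0.0686) and titles 7 to 12 (0.44, SE 0.14, adjusted p = 0.0533), where it did not pass with 3 libraries a side, and it was 0.27 with library-total scaling (adjusted p = 0.293). Within a library the ratio of Rapsn to Chrna1 per exon length was 0.117 to 0.141 under the wildtype label and 0.113 to 0.149 under the knockout label. The labels overlapped in this proportion of scaffold to alpha subunit transcript.

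Musk and Dok7 moved the other way. Musk encodes the muscle-specific receptor tyrosine kinase that organizes the synapse (ENSMUSG00000057280, chr4:58285960-58374303, plus strand). Its normalized counts were 82.8, 119 and 92.5 in wildtype replicates 1 to 3, followed by 88.4, 76.4 and 84.9 in replicates 4 to 6. In knockout replicates 1 to 3 it stood at 47.8, 43.5 and 72.8, and in replicates 4 to 6 at 60.4, 57.5 and 62.0. All knockout values lay below all wildtype values, as for 5.38% of tested genes. From 90.7 ± 15.0 it went to 57.3 ± 10.5 (SD, n = 6 each), a change of -0.66 on the log2 scale (SE 0.15, limma adjusted p = 0.00649), on 31 to 121 reads per library. Within titles 1 to 6 the difference was -0.85 (SE 0.25, limma adjusted p = 0.076), and within titles 7 to 12 it was -0.46 (SE 0.14, adjusted p = 0.0424). The ratio of Rapsn to Musk per exon length was 1.28 to 2.02 under the wildtype label and 2.84 to 4.91 under the knockout label. This separation follows from the levels of both genes, which already lay apart in opposite directions.

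Dok7 encodes the adaptor that binds MuSK and is needed for its activation in muscle (ENSMUSG00000044716, chr5:35056766-35087839, plus strand). Its normalized counts were 35.2, 68.1 and 32.7 in wildtype replicates 1 to 3, followed by 38.0, 31.8 and 34.3 in replicates 4 to 6. In knockout replicates 1 to 3 it stood at 32.1, 24.9 and 25.7, and in replicates 4 to 6 at 21.4, 18.0 and 21.0. The labels overlapped only through knockout replicate 1, which lay just above wildtype replicate 5. The log2 difference was -0.69 (SE 0.21, limma adjusted p = 0.0349), from 40.02 ± 13.9 to 23.9 ± 4.92 (SD, n = 6 each), on 11 to 52 reads per library. Without wildtype replicate 2, the library far above the others, the difference was -0.53 and still passed (limma adjusted p = 0.0342), while leaving out wildtype replicate 1 or 4, or any 1 of knockout replicates 2 to 6, ended the call (adjusted p between 0.0508 and 0.0739), as did 3 further alternatives (0.0652 to 0.271). The ratio of Musk to Dok7 per exon length overlapped between labels, at 1.98 to 3.20 and 1.68 to 3.61.

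Lrp4 encodes the agrin co-receptor that presents the signal to MuSK (ENSMUSG00000027253, chr2:91457511-91513779, plus strand). Its normalized counts were 207, 147 and 127 in wildtype replicates 1 to 3, 174, 143 and 155 in replicates 4 to 6, 216, 146 and 143 in knockout replicates 1 to 3 and 257, 155 and 146 in replicates 4 to 6. The labels overlapped widely, with means of 159 ± 28.1 and 177 ± 48.1 (SD, n = 6 each) and a log2 difference of 0.13 (95% interval -0.22 to 0.49, limma adjusted p = 0.637). Its spread ran within blocks: in each of the 4 blocks the library with the lowest title number was the highest. Chrne showed the same order, and 1.35% of all tested genes did, while none of the other 8 genes of the set did. Titles 1, 4, 7 and 10 have no common label, and a shared step in their handling was not tested.

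Agrn encodes agrin (ENSMUSG00000041936, chr4:156165290-156197488, minus strand). Its lowest, median and highest levels were 780, 868 and 918 normalized counts under the wildtype label and 868, 918 and 1114 under the knockout label. Knockout replicates 5 and 6, both at 1114, lay above all other libraries. The log2 difference was 0.16 (95% interval -0.01 to 0.33, limma adjusted p = 0.177). Per exon length Agrn stood at 93.0 ± 5.64 under the wildtype label, 3.13 to 4.72 times the level of Musk, and at 105 ± 12.1 under the knockout label, 5.19 to 8.35 times that of Musk (SD, n = 6 each). Musk alone already lay apart between the labels. The summed level of 4 endothelial markers was 827 to 962 normalized counts under the wildtype label and 1130 to 1403 under the knockout label. Pecam1 and Cdh5 rose by 0.43 and 0.56 on the log2 scale. Of the 4 markers, 2 were called higher, against 10.2% of all genes, and 2 did not pass. The part of endothelial cells in the level of Agrn was not tested, and the table does not separate neural from muscle forms of the transcript.

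**Figure D4:**
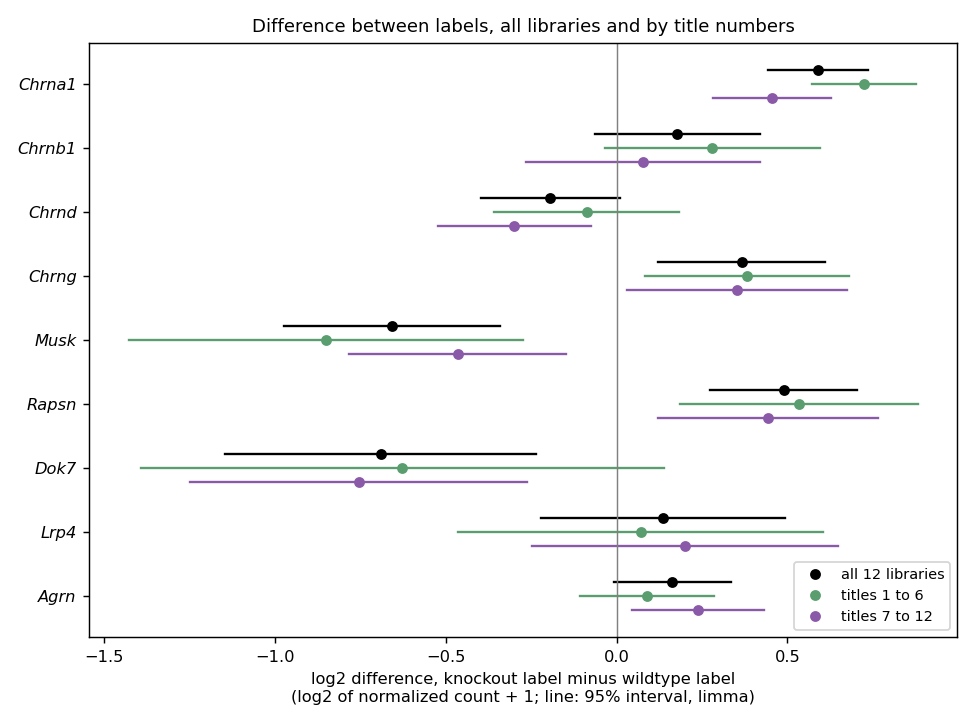
Log2 differences between the labels (horizontal axis, knockout minus wildtype, limma with 95% intervals) for the 9 genes, from all 12 libraries and from titles 1 to 6 and 7 to 12 separately. With the deposited scaling the sign is the same in both sets for every gene, and the intervals of Chrnb1 and Lrp4 reach over 0 in each of the 3 fits.

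The test called 1 of the 9 genes within titles 1 to 6 (Chrna1), against 9.20% of all genes, and 3 within titles 7 to 12 (Chrna1, Musk and Dok7), against 22.5%. With the title set as a term it called the 5 genes named above, against 30.2%. The difference between labels was then compared between titles 1 to 6 and 7 to 12. None of the 9 genes passed the limma test of that difference (1 gene, Chrna1, had an unadjusted p under 0.05, at 0.0221, as did 8.52% of all genes) or of edgeR (where Chrna1 had an unadjusted p of 0.0188). Of all tested genes only mt-Co2 passed, or 0.00797%, so the test called little anywhere. The 2 blocks of one label were also set side by side. None of the 9 genes had wildtype blocks that did not overlap, against 33.9% of all tested genes, and 2 (Chrna1 and Dok7, both lower in titles 10 to 12) had knockout blocks that did not overlap, against 39.8%. None had blocks apart in the same direction under both labels, against 19.8%. The block differences of these 9 genes ran from -0.30 (Dok7) to 0.24 (Chrnd) on the log2 scale under the wildtype label and from -0.43 (Dok7) to 0.21 (Agrn) under the knockout label. Egln3 differed by 3.14 and 3.25 between the same blocks. The counts depended on scaling: with library totals 4 of the 9 genes had wildtype blocks apart, against 46.2% of all genes, and 1 had knockout blocks apart, against 35.1%.

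Genes that act with the receptor were counted from lists of related genes, each called gene being read against the 10.2% higher and 9.07% lower of all genes. Of 30 genes of MuSK signalling, 7 rose and 2 fell, with a median log2 difference of -0.01. Ptpn11, the phosphatase SHP2, rose from 927 ± 126 to 1318 ± 193 normalized counts, and Camk2g, a calcium-dependent kinase gene, rose from 226 ± 25.3 to 294 ± 30.6 (SD, n = 6 each; limma adjusted p = 0.0046 and 0.0126). Each of these calls was lost in 4 alternatives, library-total scaling among them (adjusted p 0.052 to 0.178 for Ptpn11 and 0.0567 to 0.566 for Camk2g by limma). Pak1, the kinase gene that links RAC and CDC42 to the actin cytoskeleton, fell by 0.72 (limma adjusted p = 0.000114), and Fyn, a SRC family kinase gene, fell by 0.30 on the log2 scale (adjusted p = 0.0245). The call of Fyn was lost without wildtype replicate 5 or 6 and within titles 1 to 6 alone (limma adjusted p 0.0525 to 0.294). Of 14 tested genes of the synaptic cleft and basal lamina, 3 rose and 1 fell (median 0.27). Ache, which encodes acetylcholinesterase, the enzyme that clears the transmitter, fell from 89.5 ± 8.99 to 62.0 ± 12.6 (limma adjusted p = 0.0171). Lgals1, which encodes galectin 1, and Prnp, which encodes the prion protein, rose by 0.63 and 0.41 on the log2 scale, calls lost under library-total scaling (limma adjusted p = 0.0596 and 0.447). The call of Ache was lost within titles 1 to 6 and within titles 7 to 12 alone (limma adjusted p = 0.15 and 0.0685).

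The dystrophin complex and the cytoskeleton under the membrane moved both ways, 4 of 20 genes higher and 4 lower (median -0.08). Dtna, the alpha-dystrobrevin gene, whose protein steadies receptor clusters, fell from 84.5 ± 18.7 to 31.6 ± 8.31, and Scn4a, the muscle sodium channel gene, from 76.4 ± 15.2 to 29.7 ± 9.71 (SD, n = 6 each; limma adjusted p = 0.000245 and 0.000685). Plec, the plectin gene, and Dag1, the dystroglycan gene, rose by 0.58 each on the log2 scale. Both calls were lost under library-total scaling and quantile normalization, and that of Plec also within titles 1 to 6 (limma adjusted p 0.108 to 0.334 for Plec and 0.0669 to 0.219 for Dag1). Of 11 tested neuregulin and ETS factor genes, 1 rose (Etv4, from 44.1 ± 4.87 to 78.8 ± 14.3, limma adjusted p = 0.00106) and none fell (median -0.10). Among them the N-box factor gene Gabpa and the synaptic ETS gene Etv5 did not pass. Nrg2 and Erbb4, below the minimum mean, were not tested. Erbb4 stood at 4.65 to 20.5 normalized counts under the wildtype label and 0 to 1.24 under the knockout label, on 0 to 29 reads. Nrg2 overlapped between labels, at 0 to 27.9 and 0 to 3.81.

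Of 14 tested genes of activity-dependent control, none rose and 4 fell, among them Msc, a repressor of myogenic factors, and Myod1, the determination factor that binds E-boxes, by 2.38 and 0.87 on the log2 scale (limma adjusted p = 0.000194 and 0.00472). The median was -0.10, and Msc and Myod1 are also among the 5 myoblast markers, of which 3 fell. Myf6 and Dach2, below the minimum mean, were not tested. Myf6 stood at 8.56 to 28.2 normalized counts under the wildtype label and 0 to 3.38 under the knockout label, on 0 to 32 reads. Dach2 overlapped between labels, at 0 to 11.7 and 3.90 to 12.4. Of 14 tested genes for Wnt proteins and other partners of LRP4 or MuSK, 3 rose and none fell (median 0.12). Apoe, the apolipoprotein E gene, went from 22.7 ± 9.93 to 69.0 ± 20.9, and Bgn, the matrix proteoglycan biglycan, from 10331 ± 1376 to 13544 ± 1775 (SD, n = 6 each), although Bgn turned to -0.02 on the log2 scale under quantile normalization and its call was lost in 3 further alternatives (limma adjusted p 0.0661 to 0.476). Of 12 tested genes listed under congenital myasthenic syndromes and glycosylation, 1 rose (Plec) and 4 fell (median -0.18). Lrp12 and the glycosylation enzyme gene Alg2 led these falls, by 0.76 and 0.38 on the log2 scale (limma adjusted p = 0.0408 and 0.0424), and both calls were lost in 10 or 11 of 26 alternatives. Lrp12 is on the list but is not an established gene of these syndromes or of glycosylation.

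**Figure D5:**
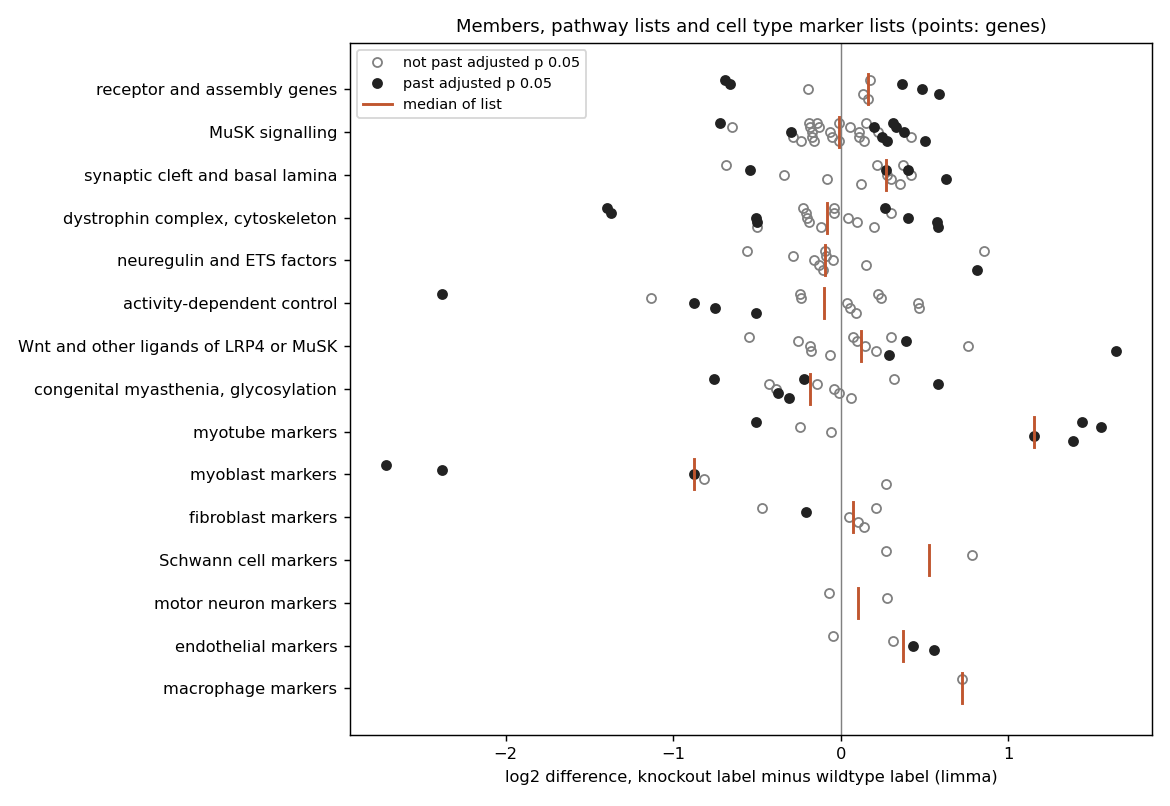
Log2 differences between the labels (horizontal axis, limma) for the 9 genes, the lists of related genes and the cell type markers, 1 point per tested gene, filled where past adjusted p 0.05, with the median of each list. The medians of the pathway lists lie between -0.18 and 0.27, and those of the myotube and myoblast markers at 1.16 and -0.87.

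The profiles most like those of the called genes were searched by the root mean square difference of centred log2 levels over the 12 libraries, in 8908 genes whose mean reached 50. S100a6 and Prkaca, genes of a calcium-binding protein and of the catalytic subunit of protein kinase A, were nearest to Chrna1 (0.056 and 0.065), whose own levels spread by 0.31 around their mean. Mpc1 was nearest to Rapsn (0.08), Pik3cb and Cbwd1 to Musk (0.162 and 0.163), Zfp324 and Stradb to Dok7 (0.164 and 0.181), and Cbr1 and Efl1 to Chrng (0.128 and 0.135). The nearest genes of Chrng did not themselves pass the comparison between labels (limma adjusted p = 0.082 and 0.139).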

How the data were processed

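The deposited signal consists of normalized counts made by the authors. The submitters' processing notes name the tools: they were Trimmomatic 0.33, STAR 2.5.2, RSEM 1.3.3 and DESeq2, with mm10. The 12 columns matched the sample titles, and GENCODE M21 named 19953 of 20201 identifiers (98.8%). Dividing by 1 factor per library returned whole reads for 100% of values (tolerance 1e-06). RSEM estimates shared reads, which makes genes with close copies uncertain. The 11 most abundant genes took 51.2% to 67.0% of reads, which lowers depth elsewhere. No 2 libraries agreed within sampling noise (chi-square per degree of freedom at least 5.34).

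The main test was limma 3.58.1 (trended prior, R 4.3.3) on log2(normalized count + 1). It was two-sided, and p-values were adjusted by Benjamini-Hochberg across the 12553 genes whose mean reached 10, with 7648 genes below that. The pseudocount understates changes of low genes. The threshold was an adjusted p of 0.05. On recovered reads edgeR 4.0.16 (quasi-likelihood) called 1306 genes higher and 1105 lower, and DESeq2 1.42.0 called 1431 and 1356. The scripts were tested on simulated data. The members and lists were chosen with earlier results of these data known. Named were the 9 genes, Chrne, the label checks, up to 2 called genes per direction and list by size of difference, and the 2 nearest profiles per called gene, of which 1 is not reported here, nor is 1 marker gene. Chrna7, Nrg2, Erbb4, Myf6, Dach2, mt-Co2 and the marker genes were named after their values were seen. Alternatives were other pseudocounts, filters, scalings, tools and weights, the title set as a term or alone, and each library left out. Ratios, the order within blocks and blocks under other scalings were added after seeing the data.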

Additional observations from a re-analysis of the deposited data

Results flagged for a closer look

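Among 38 named genes, the highest and lowest library of each label were checked for a gap to the next library above Dixon's 95% critical share of the range, in 76 groups of 6. Chance flags about 1 in 20 such groups, and 5 were found. Rapsn stood at 124.8 normalized counts in knockout replicate 4 and at 96.9 to 107 in the other 5. Dok7 stood at 68.1 in wildtype replicate 2 and at 31.8 to 38.0 in the others. Plec stood at 4231 and Alg2 at 342.3 in wildtype replicate 2, against 2287 to 2970 and 203 to 224. Ptpn11 stood at 1177 in wildtype replicate 3, against 840.5 to 919.3. Of the 5 libraries, 3 were wildtype replicate 2, which also had the highest share of genes at 0, and the part of that share in these values was not tested.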

How the results depend on the processing

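The calls of Chrna1, Musk and Rapsn held in 25, 25 and 23 of 26 alternatives, and those of Chrng and Dok7 in 11 of 26 and 15 of 25. Depth limits Dok7 and Chrne most, with 11 to 52 and 5 to 27 reads per library. The cause of each shift below was not tested.

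Under library-total scaling the median of all genes was -0.23, 175 genes were called higher (10.1% of calls against 52.9%), 0 of the 9 genes were higher (1.39% of all), and Chrnb1, Lrp4 and Agrn turned to -0.047, -0.09 and -0.063. There 4 of the 9 genes had wildtype blocks apart (46.2% of all genes) and 1 had knockout blocks apart (35.1%). Totals without the 11 most abundant genes gave 631 higher and 2116 lower (23.0% higher), with Lrp4 at -0.021. Quantile normalization left 1 of the 9 genes lower (8.37% of all), 1 with wildtype blocks apart (33.4%), and Bgn at -0.024. No filter left 1 of the 9 lower (5.4%), and a minimum mean of 50, under which Dok7 was not tested, 1 of 8 (9.4%). The title set as a term gave 2000 higher and 1785 lower. Titles 1 to 6 alone gave 709 and 446 genes, and 1 higher and 0 lower of the 9 (5.65% and 3.55% of all), and titles 7 to 12 alone left 1 of the 9 higher (12.4%). The difference between sets was called for 0 genes with a pseudocount of 10 and 0 by edgeR (1108 at an unadjusted p under 0.05). Leaving out 1 library gave 1071 to 1479 genes higher, 936 to 1254 lower, 2 to 3 of the 9 higher, 1 to 2 lower, and 1 to 4 genes differing between sets.

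No paired analysis was possible because the titles number the libraries from 1 to 12 without repeats, so the replicate numbers pair nothing.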
